A study of Homo sapiens with 6 samples.

Results

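Common reference genes for quantitative PCR were followed in DMS53 cells with and without enforced expression of OC2, the protein of ONECUT2. The set holds 9 genes, ACTB, ACTG1, GAPDH, HPRT1, TBP, PPIA, RPLP0, YWHAZ and GUSB, chosen by name among the 62696 genes counted, and all 9 had enough counts to be tested. DMS53 is an established human small cell lung cancer (SCLC) line with neuroendocrine (NE) features. The control cells carried an empty lentiviral vector with mGFP, and the OC2-OE cells carried the same kind of vector with an mGFP-tagged ONECUT2 coding sequence under constitutive expression. Both groups were selected with puromycin after transduction, and each group had 3 stranded poly(A) RNA-Seq libraries, which the study describes as independent experiments. The labels do not say whether they came from separate cultures, so the SDs and p-values measure the spread between these libraries, which may be technical. The question was whether these genes, used to scale qPCR measurements, kept the same level between control and OC2-OE cells.

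A reference gene serves as the denominator of relative quantification: the level of a target is divided by the level of a gene assumed to be equal in all samples. If the denominator moves, every target measured against it moves by the same factor in the opposite direction. The usual choices are genes of basic cell functions, and the 9 genes stand for different ones. ACTB and ACTG1 encode the cytoplasmic actins, GAPDH a glycolytic enzyme, HPRT1 an enzyme of purine salvage and TBP the TATA-binding protein of the transcription machinery. PPIA encodes the prolyl isomerase cyclophilin A, RPLP0 a protein of the ribosomal stalk, YWHAZ a 14-3-3 adaptor protein and GUSB the lysosomal enzyme beta-glucuronidase.

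Libraries held between 16533284 and 19099337 counts. ONECUT2 rose from 24.6 ± 0.332 to 3944 ± 70.3 CPM (counts per library size, scaled with edgeR's TMM factors; SD, n = 3), and its count does not separate the introduced from the endogenous transcript. NE markers were present, with a summed level of 4987 to 5039 CPM in control and 3281 to 3345 CPM in OC2-OE libraries, where 7 of 8 were lower and 1, CHGA, was higher at an adjusted p under 0.001. Markers of other cell types (12 genes) summed to 24.1 to 28.0 CPM in control and 31.8 to 34.6 CPM in OC2-OE libraries. Among these, CD3E had 0 counts in every library, PTPRC had 0 counts in control and 3 in OC2-OE libraries, and COL1A1 was the most abundant. Only 5 of the 12 had enough counts to be tested. Of these, at the same threshold and beside the same shares, COL1A1 and PDGFRB were higher and CDH5 was lower (52 counts in control and 3 in OC2-OE libraries). The part of these differences in the results on the reference genes was not tested. The share of counts from mitochondrially encoded genes was 2.28 to 2.47% in control and 2.88 to 2.90% in OC2-OE libraries.

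The actin pair shows how closely 2 members can resemble each other in their coding sequences. The coding sequences of ACTB and ACTG1 have 1125 compared bases (GENCODE release 29 transcripts, GRCh38), of which 98 differ, an identity of 91.3%. The encoded proteins differ at 4 of 375 residues. The opening 60 coding bases are shown because they hold 10 of the differences, set in capitals, for ACTB at chr7:5529598-5529657 (minus strand) and for ACTG1 at chr17:81512295-81512354 (minus strand), both in coding exon sequence.

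ACTB: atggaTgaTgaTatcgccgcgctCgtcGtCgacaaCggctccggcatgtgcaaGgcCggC

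ACTG1: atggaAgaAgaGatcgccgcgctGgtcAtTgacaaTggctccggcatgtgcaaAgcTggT

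The longest run of identical coding bases was 59, and 130 stretches of 25 bases were shared within the coding sequences. None of that length was shared after the coding sequences, which run on for 601 bases in ACTB and 719 bases in ACTG1. Reads that matched several places were not counted, so reads within the shared stretches may be missing from both genes.

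The sequence before the first listed RefSeq transcription start (GRCh38.p14) was taken for 7 members, as windows of 250 bases, while ACTB and YWHAZ were not used here. Other starts of these genes were not used. Some starts lie inside the annotated range of their gene. For GAPDH the start is at chr12:6535264 and the range begins at chr12:6534512. For ACTG1 the start is at chr17:81512799 and the range reaches chr17:81523847. A search on both strands covered TATAAA, the core of a TATA box, the CArG box bound by serum response factor, and ATCAAT and ATCGAT, letters found in sites of ONECUT proteins. TATAAA occurred in 10.7% of all 35116 windows of this length, the CArG box in 1.16%, ATCAAT in 5.58% and ATCGAT in 0.655%. Among the 7 windows, that of ACTG1 held a CArG box beginning 94 bases before the start used. Those of PPIA and RPLP0 held TATAAA beginning 31 and 27 bases before it, and that of TBP held ATCGAT beginning 219 bases before it. ATCAAT was in none of the 7 windows. These are matches of letters and carry no measurement of binding. The motifs named here did not overlap each other.

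Sequences of 4 of these windows are shown for the member that fell most, 2 others that fell by a similar factor, and the member that rose most. Each is cut at the first annotated exon of its gene within the window, and capitals mark the matches named above. They lie at chr17:81512852-81513049 (minus strand, ACTG1), chr7:44796431-44796679 (plus strand, PPIA), chr6:170554119-170554301 (plus strand, TBP) and chr7:65982216-65982463 (minus strand, GUSB).

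ACTG1: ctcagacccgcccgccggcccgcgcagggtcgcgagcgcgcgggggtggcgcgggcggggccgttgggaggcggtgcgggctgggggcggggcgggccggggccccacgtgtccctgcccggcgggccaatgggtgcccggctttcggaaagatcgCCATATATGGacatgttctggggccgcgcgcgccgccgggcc

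PPIA: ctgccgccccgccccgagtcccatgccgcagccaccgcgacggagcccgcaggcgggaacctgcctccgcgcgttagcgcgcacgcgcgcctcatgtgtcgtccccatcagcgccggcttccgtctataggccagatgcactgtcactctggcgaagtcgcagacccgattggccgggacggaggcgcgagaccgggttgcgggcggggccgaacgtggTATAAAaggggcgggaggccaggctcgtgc

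TBP: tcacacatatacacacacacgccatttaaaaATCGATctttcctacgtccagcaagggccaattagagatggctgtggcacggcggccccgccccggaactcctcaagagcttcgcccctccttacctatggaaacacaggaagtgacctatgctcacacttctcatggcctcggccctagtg

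GUSB: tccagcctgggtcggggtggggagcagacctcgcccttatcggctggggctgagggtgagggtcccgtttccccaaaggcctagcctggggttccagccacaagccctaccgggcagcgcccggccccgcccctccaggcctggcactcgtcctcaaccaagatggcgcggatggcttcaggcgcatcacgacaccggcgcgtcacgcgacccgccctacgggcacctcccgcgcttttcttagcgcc

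The windows of ACTG1, PPIA and GUSB, at their full length, were rich in G and C (78.8, 71.6 and 70.4%), and that of TBP had 56.0%, where the median of all windows was 58.0%. The GUSB window held none of the 4 motifs above. A further search for the letters GGGCGG, not set in capitals, found 2 matches in it. GGGCGG occurred in 42.6% of all windows and in every member window searched except that of RPLP0.

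Levels of the reference genes differed between the groups, as those of most abundant genes did. With edgeR's quasi-likelihood test and Benjamini-Hochberg adjustment over 17307 genes, 8 of the 9 passed an adjusted p under 0.001, where 56.5% of all tested genes passed. Of the 8, 6 were lower and 2 higher in OC2-OE cells, and HPRT1 did not pass. Among all tested genes, 28.7% were lower and 27.8% higher. The 9 genes are mostly abundant, and among the 7044 genes with at least 32 CPM on average 71.5% passed, a share that the count of members stands near. At an adjusted p under 0.05 in the same edgeR test all 9 passed, as did 71.4% of all tested genes. The control and OC2-OE libraries did not overlap for any of the 9, as for 73.2% of all tested genes. The median log2 fold change of the 9 was -0.41, beside 0.01 over all tested genes. Together the 9 took 1.36 to 1.37% of the counts in control libraries and 1.06 to 1.07% in OC2-OE libraries. In bulk RNA, fewer transcripts per cell and fewer cells with the transcript cannot be told apart, and total RNA per cell was not measured.

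The scale itself enters these values, since a library can also be scaled to the reference genes, as qPCR does. Scaled to the geometric mean of the 9, the median log2 fold change of all tested genes shifted to 0.32 and 78.0% of the calls were higher, against 49.2% under TMM. Among the members 7 then passed, 3 higher and 4 lower, where 64.5% of all tested genes passed. ACTB, ACTG1, PPIA, GAPDH and TBP stayed below 0 and YWHAZ and GUSB above 0 under this and the other scalings tried. HPRT1 and RPLP0 were above 0 on this scale only and below 0 under the others. The scale centres the 9 members by construction, so members on both sides of 0 follow from it. The log2 fold changes on this scale were -0.32 for ACTG1, -0.26 for PPIA, -0.25 for ACTB and -0.095 for GAPDH, and 0.40 for YWHAZ and 0.57 for GUSB.

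**Figure D1:**
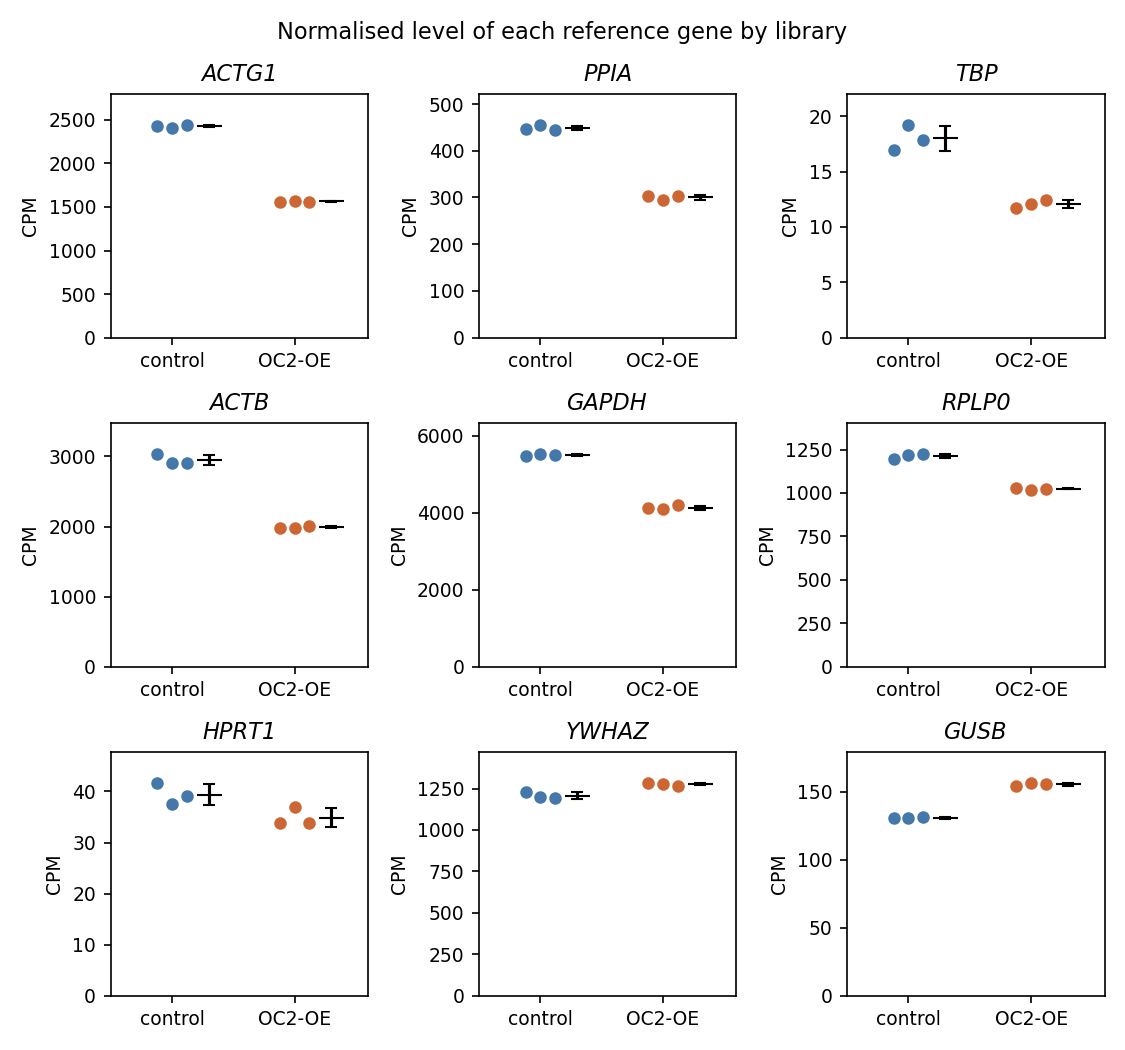
TMM-normalised level (CPM, linear axes from 0) of each of the 9 reference genes in the 3 control (blue) and 3 OC2-OE (orange) libraries. Points are libraries and black bars give the mean and SD. In every panel the groups are separate, narrowly so for HPRT1, and only YWHAZ and GUSB are higher in OC2-OE.

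The cytoplasmic actins fell together. ACTB, the probe used as a qPCR reference in the study, lies at chr7:5526409-5563902 on the minus strand of GRCh38 (ENSG00000075624.17). Its level was 3030, 2909 and 2902 CPM in the control libraries and 1979, 1986 and 2013 CPM in the OC2-OE libraries. All OC2-OE libraries were below all control libraries, and control replicate 1 was the highest. The group means were 2947 ± 72.2 and 1993 ± 18.04 CPM (SD, n = 3), so that ACTB fell by 32.4%. On the log2 scale this is -0.56 (standard error 0.018, 95% interval -0.60 to -0.53, edgeR adjusted p = 1.89e-57).

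ACTG1, the gene of gamma-actin (ENSG00000184009.13, chr17:81509413-81523847, minus strand), had the largest change of the 9 on the TMM scale, while scaled to the 9 members GUSB and YWHAZ moved further than its -0.32. Its level was 2431, 2412 and 2437 CPM in control and 1562, 1574 and 1561 CPM in OC2-OE libraries. The libraries of each group lay close together beside the gap between the groups. For ACTG1 the log2 fold change was -0.63 (standard error 0.018, 95% interval -0.67 to -0.60, edgeR adjusted p = 1.59e-62), which is 1.55-fold lower. Of all tested genes, 67.8% had a smaller absolute change than ACTG1, and among those with at least 32 CPM 81.2% did.

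GAPDH converts glyceraldehyde-3-phosphate in glycolysis and was the most abundant of the 9 (ENSG00000111640.15, chr12:6534512-6538374, plus strand). It had 5481, 5518 and 5511 CPM in control and 4118, 4095 and 4195 CPM in OC2-OE libraries. The groups were far apart relative to their spread. Its log2 fold change was -0.41 (standard error 0.016, 95% interval -0.44 to -0.38, edgeR adjusted p = 1.71e-47), and GAPDH fell by 24.8%.

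PPIA, which also binds cyclosporin A (ENSG00000196262.15, chr7:44796680-44824564, plus strand), had 446, 454 and 445 CPM in control and 302, 295 and 304 CPM in OC2-OE libraries. No OC2-OE library came near a control library. On the log2 scale PPIA moved by -0.58 (standard error 0.024, 95% interval -0.62 to -0.53, edgeR adjusted p = 1.75e-46), or 1.49-fold lower.

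TBP directs RNA polymerases to promoters and was the least abundant of the 9 (ENSG00000112592.15, chr6:170554302-170572870, plus strand). It had 316, 321 and 291 counts in control and 225, 210 and 226 in OC2-OE libraries, or 16.9, 19.2 and 17.9 CPM against 11.7, 12.1 and 12.4 CPM. The groups were separate even at this depth. The log2 fold change was -0.57 (standard error 0.084, 95% interval -0.74 to -0.40, edgeR adjusted p = 1.64e-09), and scaled to the 9 members it was -0.26 (edgeR adjusted p = 0.00477), which did not pass. The interval of TBP was the widest of the 9, and counting error alone gives a coefficient of variation of 5.69% in control and 6.74% in OC2-OE libraries.

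RPLP0 carries the ribosomal stalk proteins on the large subunit (ENSG00000089157.16, chr12:120196699-120201235, minus strand). It had 1198, 1217 and 1222 CPM in control and 1026, 1020 and 1025 CPM in OC2-OE libraries. The groups were separate, and the step between them was small beside those of the genes above. The log2 fold change was -0.24 (standard error 0.019, 95% interval -0.28 to -0.21, edgeR adjusted p = 4.63e-23), and RPLP0 fell by 15.6%. Scaled to the 9 members it was 0.073 (edgeR adjusted p = 0.000634).

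HPRT1, which returns hypoxanthine and guanine to the nucleotide pool (ENSG00000165704.15, chrX:134460165-134520513, plus strand), was the only member that did not pass. Its level was 41.6, 37.5 and 39.1 CPM in control and 33.8, 37.1 and 33.8 CPM in OC2-OE libraries, from 615 to 777 counts. The lowest control and the highest OC2-OE library were close together. The log2 fold change was -0.18 (standard error 0.056, 95% interval -0.29 to -0.07, edgeR adjusted p = 0.00287), so the interval excludes 0 and reaches beyond a 1.2-fold difference. Scaled to the 9 members it was 0.14 (edgeR adjusted p = 0.0212).

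YWHAZ binds phosphorylated partner proteins in many signalling routes (ENSG00000164924.18, chr8:100916523-100953388, minus strand) and had the smallest change of the 9 on the TMM scale. It had 1230, 1197 and 1195 CPM in control and 1281, 1279 and 1268 CPM in OC2-OE libraries. The OC2-OE libraries were all above the control libraries, and the lowest of them was close to control replicate 1. The log2 fold change was 0.08 (standard error 0.019, 95% interval 0.04 to 0.12, edgeR adjusted p = 1.01e-04), an increase of 5.68%. The call depends on single libraries: without OC2-OE replicate 1 the edgeR adjusted p was 0.00110 and without OC2-OE replicate 2 it was 0.00101. Among all tested genes 11.8% had a smaller absolute change. Scaled to library size only, YWHAZ had a log2 fold change of 0.130 and HPRT1 one of -0.129, and scaled to the 9 members YWHAZ had 0.40.

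GUSB removes glucuronic acid from glycosaminoglycans in lysosomes (ENSG00000169919.17, chr7:65960684-65982215, minus strand) and moved against most of the others. It had 131 CPM in each control library and 154, 156 and 156 CPM in OC2-OE libraries. Every OC2-OE library was above every control library, and replicates were nearly equal. On the log2 scale GUSB moved by 0.25 (standard error 0.031, 95% interval 0.19 to 0.31, edgeR adjusted p = 4.10e-12), or 1.19-fold higher.

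**Figure D2:**
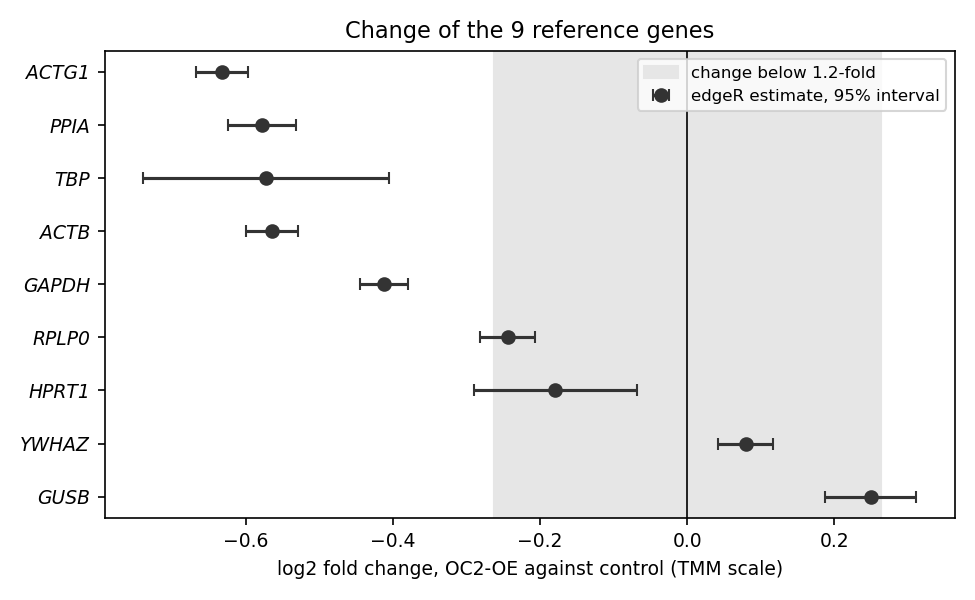
Log2 fold change of each reference gene between OC2-OE and control cells (edgeR, TMM scale; points, estimates; bars, 95% intervals). The grey band spans changes below 1.2-fold. ACTG1, PPIA, TBP, ACTB and GAPDH lie wholly outside it, YWHAZ lies inside it, and the intervals of RPLP0, HPRT1 and GUSB reach its edge.

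A difference can pass a test at this precision and still be small, so the change was also tested against a minimum of 1.2-fold (edgeR's glmTreat). By this test 5 members passed an adjusted p under 0.001, all lower: ACTG1, PPIA, TBP, ACTB and GAPDH. The same test called 34.3% of all genes. The adjusted p was 1.09e-04 for TBP, 0.606 for GUSB, 0.833 for RPLP0, 0.995 for HPRT1 and 1 for YWHAZ in glmTreat. A value that misses the threshold does not show that a change is below 1.2-fold.

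Within a group the reference genes were reproducible. The coefficient of variation over 3 libraries was 0.356 to 2.45% in control cells for the 7 members above 100 CPM, and 5.26 and 6.33% for HPRT1 and TBP. In OC2-OE cells it was 0.337 to 1.67% for the same 7 members, 5.41% for HPRT1 and 2.75% for TBP. For HPRT1 counting error alone gives 3.83% in control and 3.97% in OC2-OE libraries. For YWHAZ, whose increase was only 5.68%, the coefficient of variation was 1.64% in control and 0.592% in OC2-OE libraries.

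Levels between genes were compared per length, as TPM (counts divided by exon length and scaled to the library) from the deposited exon lengths. In control cells GAPDH had 9369 ± 52.3 TPM, ACTB 2729 ± 66.9, ACTG1 2443 ± 24.6, RPLP0 1240 ± 15.5 and YWHAZ 576 ± 9.59 TPM (SD, n = 3). PPIA had 269.8 ± 1.97, GUSB 137 ± 1.19, HPRT1 99.7 ± 5.42 and TBP 31.7 ± 1.92 TPM. The order was the same in OC2-OE cells, and neighbours in it differed by more than their spread in both groups. There the distance between PPIA and GUSB had narrowed to 186 ± 3.03 against 168 ± 1.09 TPM (SD, n = 3). The length used joins all annotated exons of a gene, which lowers the TPM of genes with many alternative exons.

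Ratios between members within a library do not depend on how libraries are scaled. Of the 36 pairs of members, 30 had log2 count ratios that did not overlap between groups, each with an exact two-sided permutation p of 0.1, the smallest that 3 against 3 libraries allow (0.12 after adjustment over the 36 pairs). The ratio moved by more than 1.2-fold in 21 pairs and by more than 1.5-fold in 9, with a median of 1.26-fold. Over all 24805446 pairs of tested genes with at least 32 CPM, which leaves out TBP, 84.5% did not overlap, 67.7% moved by more than 1.2-fold and 38.7% by more than 1.5-fold. The counts of the members stand near or below these shares.

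The widest divergence was between ACTG1 and GUSB, whose log2 ratio was 4.21 ± 0.00533 in control and 3.33 ± 0.00773 in OC2-OE libraries (SD, n = 3), a shift of 1.84-fold. These SDs lie below the counting error of GUSB, whose coefficient of variation from counting alone is 2.11% in control and 1.88% in OC2-OE libraries, and so understate the uncertainty. The log2 ratio to GUSB moved by -0.83 for PPIA, by -0.82 for TBP, by -0.81 for ACTB and by -0.66 for GAPDH. The ratio of ACTG1 to YWHAZ moved by -0.71. Between YWHAZ and GUSB, both of which rose, the ratio moved by -0.17.

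Other pairs stayed close. The log2 ratio moved by 0.01 between TBP and PPIA, ACTB and TBP, and ACTB and PPIA, by -0.06 between ACTG1 and TBP and by -0.05 between ACTG1 and PPIA. It moved by 0.07 between HPRT1 and RPLP0. These 6 pairs overlapped between groups, with exact two-sided permutation p from 0.2 to 0.9. Of these, 5 were among ACTB, ACTG1, TBP and PPIA, of which ACTB fell by 32.4% and ACTG1 fell by 35.5% on the CPM scale. ACTB to ACTG1 was 0.28 ± 0.034 in control and 0.35 ± 0.017 in OC2-OE libraries (SD, n = 3), a small shift without overlap. The small shifts of the overlapping pairs depended on single libraries. Without control replicate 1 the shift was 0.117 for HPRT1 to RPLP0 and 0.071 for ACTB to TBP. Without control replicate 2 these shifts were 0.031 and -0.049.

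**Figure D3:**
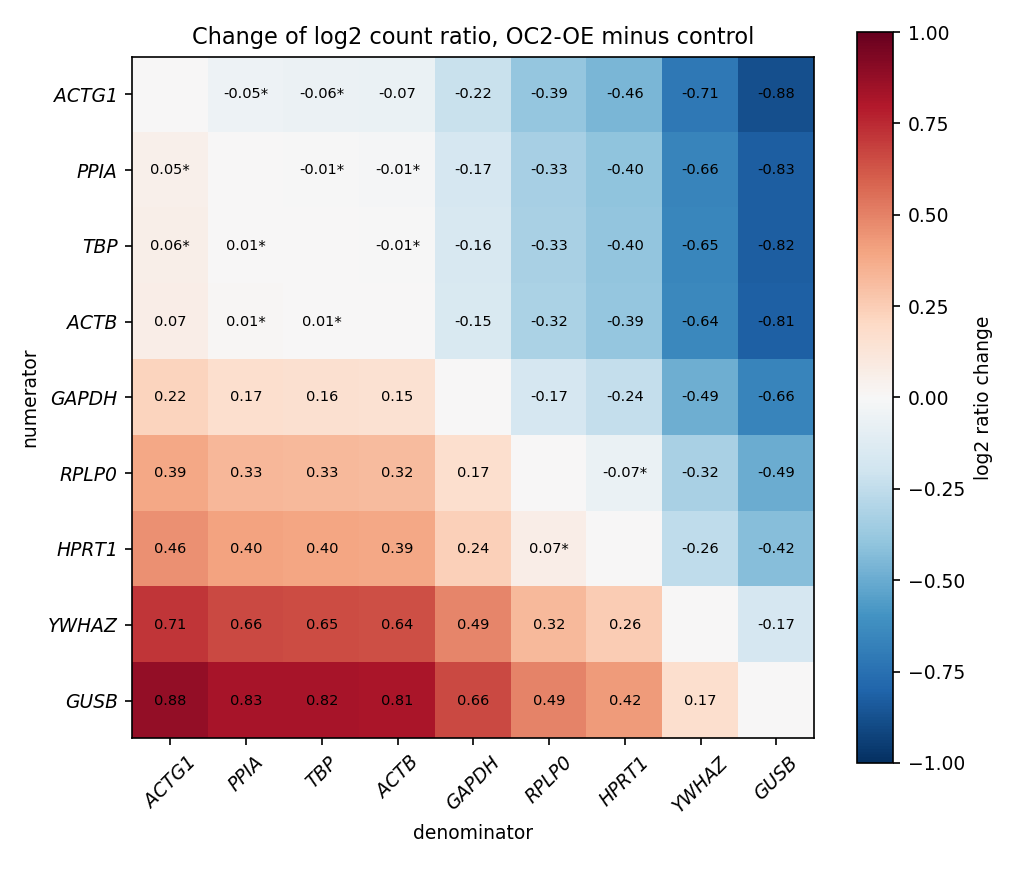
Change of the log2 count ratio of each pair of reference genes, OC2-OE minus control (rows, numerator; columns, denominator; red higher, blue lower). An asterisk marks the 6 pairs whose ratios overlap between groups. Ratios to GUSB and YWHAZ shift most, with the extreme at -0.88 for ACTG1 to GUSB.

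The pairwise stability measure M, the mean SD of the log2 ratio of a gene to each other candidate, is commonly used to rank reference genes and was computed without a test. Over all 6 libraries M was 0.160 for GAPDH, 0.174 for RPLP0, 0.180 for ACTB, 0.182 for PPIA, 0.196 for TBP, 0.199 for HPRT1, 0.203 for ACTG1, 0.271 for YWHAZ and 0.351 for GUSB. Within control libraries M was at most 0.104 and within OC2-OE libraries at most 0.0818. Removing the gene with the highest M at each step took out GUSB, YWHAZ, HPRT1, RPLP0, GAPDH, TBP and ACTG1 in that order, and left ACTB and PPIA with an M of 0.0311. The rank by M and the rank by change on the TMM scale were thus unlike each other: YWHAZ changed least on that scale and was the second to be removed, while ACTB fell by 32.4% and PPIA fell by 33.0%. M is computed only from the candidates, so genes that shift together keep a low M.

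The consequence for relative quantification was computed from the counts by dividing each target of the study's qPCR by each reference gene. The targets were ONECUT2, the NE transcription factor NEUROD1, the Hippo effector YAP1, the repressor of neuronal genes REST and MYCL, a proto-oncogene of SCLC. For each target the log2 change spanned 0.88 between the 9 references, which is 1.84-fold, with GUSB at the low end and ACTG1 at the high end. By arithmetic this span is the same for any target and equals the shift between ACTG1 and GUSB. TUBB, the other reference probe of the study's qPCR, encodes a beta-tubulin. It stood at 766 ± 11.1 CPM in control and 461 ± 6.83 CPM in OC2-OE libraries (SD, n = 3). The log2 fold change of TUBB on the TMM scale was -0.73 (standard error 0.021, edgeR adjusted p = 5.23e-61). On that scale it was larger in size than that of any of the 9.

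REST shows the spread for a target with a moderate change. On the TMM scale its log2 fold change was 0.72 (edgeR adjusted p = 5.77e-12). Relative to GUSB it was 0.47 and relative to ACTG1 1.35. Relative to ACTB it was 1.29, or 2.44-fold, and relative to TUBB 1.45. MYCL, with 0.41 on the TMM scale (edgeR adjusted p = 9.92e-19), was 0.17 relative to GUSB, 0.98 relative to ACTB and 1.05 relative to ACTG1.

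Targets with large changes kept their direction and lost or gained the same step. NEUROD1 was -2.32 on the TMM scale (edgeR adjusted p = 2.94e-94), -2.56 relative to GUSB, -1.75 relative to ACTB and -1.68 relative to ACTG1. NEUROD1 overlaps the range of CERKL on the same strand, so its count is less certain. YAP1 was 3.34 on the TMM scale (edgeR adjusted p = 1.52e-41), 3.09 relative to GUSB and 3.91 relative to ACTB. ONECUT2 ranged from 7.07 to 7.96. Relative to the mean of the 9 genes, the log2 change was 1.04 for REST, 3.66 for YAP1 and 7.64 for ONECUT2. All 5 targets kept their direction with each of the 9 references and with TUBB.

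**Figure D4:**
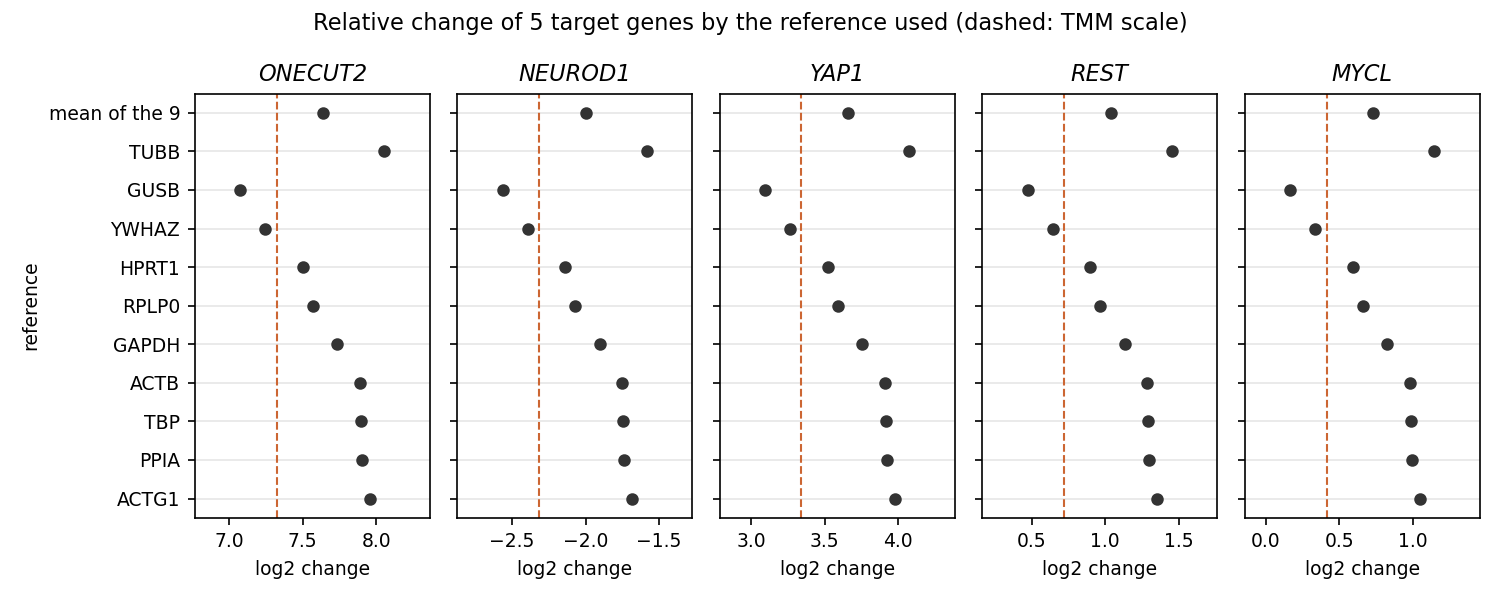
Log2 change of 5 qPCR targets between OC2-OE and control cells, computed from counts relative to each reference gene, to TUBB and to the mean of the 9 genes (points). The dashed line is the TMM-scaled change, and each panel has its own axis. The order of the references, from GUSB (lowest) to TUBB (highest), and the span of 0.88 over the 9 genes are the same in every panel by arithmetic.

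Other reference genes were counted in the same fit. Of 25 further classical reference genes, all tested, 16 were lower and 4 higher at an adjusted p under 0.001, beside the 56.5% that passed over all genes and the 71.5% over those with at least 32 CPM, with a median log2 fold change of -0.22. The largest changes were those of B2M, the light chain of MHC class I (1.49), the importin IPO8 (-1.32), and the tubulins TUBA1B (-1.05) and TUBB (-0.73). Among the smallest were those of the proteasome ATPase PSMC4 (0.08), which did not pass, and the ribosomal protein gene RPS13 (-0.10), which did. Of 18 genes proposed as references from RNA-Seq atlases, 6 were lower and 5 higher, with a range of log2 fold changes from -0.30 to 0.33 and a median of 0.00. The extremes were EMC7 (0.33), PCBP1 (-0.30), C1orf43 (-0.29) and OAZ1 (-0.28), and among the smallest changes were those of PSMB2 (0.02), CHMP2A (0.02) and SNRPD3 (-0.02), none of which passed. Beyond 1.2-fold, glmTreat called 10 of the 25 classical genes and 0 of the 18, where glmTreat called 34.3% of all genes. Against no change 11 of the 18 passed edgeR's test, which is near the share over all genes.

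Genes that work with each member were counted next, beside 28.7% lower and 27.8% higher over all genes. Of 19 tested actins and actin partners, 13 were lower and 4 higher, with a median log2 fold change of -0.31. TMSB4X (-1.49), which holds actin monomers, and the tropomyosin TPM4 (-1.15) fell most, and TMSB10 had 0.00. The muscle and other actins ACTA1, ACTA2, ACTC1, ACTG2 and ACTBL2 had too few counts to be tested. Of 16 tested glycolytic enzymes, 11 were lower and 3 higher, with a median of -0.32. HK2 (-1.21), a hexokinase, and ALDOC (-0.86) fell most, and ALDOA had -0.08 without passing. ALDOC overlaps the range of another gene on the same strand, as does ALDOA, so their counts are less certain.

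Partners of the less abundant members were mixed. Of 16 genes of purine salvage and synthesis, 6 were lower and 3 higher, with IMPDH1 at 0.58, PRPS2 at -0.57 and ADK at 0.06 without passing. Of 19 TFIID subunits and TBP partners, 5 were lower and 4 higher, with TAF5 at -0.62, TAF2 at -0.51 and TAF8 at -0.01 without passing. Of 13 other cyclophilins, 4 were lower and 4 higher. PPIH, of the spliceosome, had -0.63, PPIB, of the endoplasmic reticulum, had 0.60, and RANBP2 had 0.03 without passing.

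Of 9 proteins of the ribosomal stalk and its neighbours, 7 were lower and 1 higher, with a median of -0.13. MRTO4 (-0.50), a stalk assembly factor, and RPLP2 (-0.41) fell most, while RPLP1 had 0.00 and ranged from 7136 to 8413 counts in control libraries. Of the 6 other 14-3-3 genes, YWHAQ (-0.69) and YWHAE (-0.35) fell and YWHAG (0.12) rose. SFN had 0.04 without passing.

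Lysosomal glycosidases and sulfatases, the enzyme group of GUSB, mostly moved in the direction of GUSB: 15 of 18 rose and none passed as lower, with a median log2 fold change of 0.70. IDUA (1.98) and GAA (1.89) rose most, and HYAL2 had 0.08 without passing. IDS, the only member of the list below 0, had -0.16 (edgeR adjusted p = 0.0196). HYAL2 and IDS overlap the ranges of other genes on the same strand, so their counts are less certain. IDUA went from 10.1 ± 1.72 to 39.9 ± 1.28 CPM and GAA from 21.2 ± 0.842 to 78.4 ± 1.11 CPM (SD, n = 3). GUSB, at 0.25, changed less than the median of this group.

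Copies of the members elsewhere in the genome took few counts, with 1 exception. Pseudogenes named after GUSB (21 in the annotation) held 1198 counts in control and 1325 in OC2-OE libraries, which is 17.7 and 15.6% of the GUSB counts, and GUSBP1 held most of them. With these added, the log2 fold change of GUSB was 0.22. The 89 pseudogenes of PPIA held 464 counts in control and 329 in OC2-OE libraries, summed over 3 libraries each, which is 2.002 and 2.001% of the PPIA counts. TBP had none by name. No member overlaps the range of another gene on the same strand.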

How the data were processed

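Poly(A) RNA of 6 DMS53 samples, 3 control and 3 OC2-OE, was sequenced as stranded libraries. Per the labels and file headers, the authors aligned reads with STAR 2.7.9a and deposited raw counts of read pairs per gene, made with featureCounts 1.6.0 (strand option 2, exons of GENCODE release 42, GRCh38), without normalization. Reads with several matches were not counted, and no gene was filtered.

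From these counts, edgeR 4.0.16 in R 4.3.3 was run with TMM factors (0.980 to 0.985 in control, 1.017 to 1.018 in OC2-OE libraries), filterByExpr, a robust quasi-likelihood fit and Benjamini-Hochberg adjustment over 17307 genes, at the study's threshold of 0.001. Log2 ratios used counts plus 0.5, and 36 pairs were compared by an exact permutation test. M and the change of targets by reference carry no test. TPM used the deposited lengths. The members and all lists were chosen with earlier results of these data known. The genes named are the 9 members, TUBB, the qPCR targets, the 4 largest and 4 smallest changes of each list of other reference genes, and the 2 largest that passed and the smallest of each list of partner genes, plus the 5 genes with the smallest SD. YWHAG, IDS, CHGA and the markers of other cell types were named outside this rule after their values were seen. Some targets of the study's qPCR panel and some genes that the rule names are not reported here.

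Chi-square per degree of freedom between libraries of a group was 1.32 to 2.07 and between groups 94.1 to 104.0, so no library was a copy of another. Whether replicate numbers pair the samples could not be decided from the counts. On simulated data over 17307 genes the fit recovered 44.9% of 1.25-fold, 77.1% of 1.5-fold, 93.9% of 2-fold and 100% of 4-fold changes, with 0 calls among 16449 unchanged genes. The simulation changed only a small part of the genes, in either direction at random, and gave every gene the same spread. In the data most genes passed, so the simulation checks the code and does not measure the error rate in these data. Alternatives were DESeq2 1.42.0 size factors and Wald test, library size, upper quartile, scaling to the 9 members, limma 3.58.1 voom, other filters, a threshold of 0.05, glmTreat at 1.2-fold, ONECUT2 left out, pseudogene counts added, a replicate block and each library left out. Counting error is widest for TBP and HPRT1. Figures were drawn with matplotlib 3.10.9.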

Additional observations from a re-analysis of the deposited data

How the results depend on the processing

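Direction and side of the threshold held for ACTB, ACTG1, GAPDH, PPIA and GUSB under 17 alternatives of scaling, test, filter, block, copies and left-out libraries (a minimum change and another threshold are given apart). Scaled to the geometric mean of the 9 members, the log2 fold change of HPRT1 was 0.14 and that of RPLP0 0.073, in place of values below 0, by the construction of that scale. TBP missed the threshold there, at -0.26. YWHAZ missed it without OC2-OE replicate 1 and without OC2-OE replicate 2, where its log2 fold change stayed above 0.

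Tested against a 1.2-fold change with glmTreat, 5 of the 9 members passed in place of 8, 0 of them higher, with 5928 of all genes in place of 9776, 10 of the other classical reference genes in place of 20, 0 of the RNA-Seq-derived reference genes in place of 11 and 43 of the partner genes in place of 83. This test asks for a larger change by construction. An adjusted p under 0.05 called all 9 members and 71.4% of all genes.

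With single libraries left out there were 7 or 8 members called, 8944 to 9340 of all genes, and a median M of 0.178 to 0.202, beside 0.196 with all libraries. The M without control replicate 2 was 0.178 and without OC2-OE replicate 2 it was 0.182. Pairs without overlap numbered 30 to 33. With pseudogene counts added, ratios to GUSB moved by more than 1 SD in 5 pairs and ACTG1 to GUSB was -0.85.

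The correlation of deviations between same-numbered libraries was -0.00079, 0.018 and 0.013, and between other numbers it ran from -0.016 to 0.0033. Counting error is part of these deviations, so such small values cannot decide whether the numbers pair the samples. With the replicate block 8 members and 9642 genes were called, and 30 pairs were separate. Depth limits TBP and HPRT1, whose intervals are the widest of the 9.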

Other observations

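The 5 genes with the smallest SD of log2 CPM over all 6 libraries, among those with at least 32 CPM, were ZFAS1, CEMIP2, RBAK, HDLBP and CDC27. ZFAS1, a noncoding RNA that hosts small nucleolar RNAs, had 79.3 ± 0.514 CPM in control and 79.1 ± 0.712 CPM in OC2-OE libraries (SD, n = 3). HDLBP, an RNA-binding protein of the KH domain family, had 523 ± 6.97 and 527 ± 3.89 CPM, and CDC27, a subunit of the anaphase-promoting complex, had 173 ± 1.62 and 173 ± 2.49 CPM. Their SD was 0.0104 for ZFAS1, 0.0146 for HDLBP and 0.0160 for CDC27, where YWHAZ had 0.0466 and ACTG1 0.346. These genes were picked from the same libraries by this measure, so their values are a description and carry no test. Among genes with at least 32 CPM, 7.72% had a smaller SD than YWHAZ.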
